A study of Mus musculus with 4 samples.

Results

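Prdm16, Ppara, Cox7a1 and Ckmt1 are 4 genes of beige and thermogenic fat, taken by gene name from the 11993 genes with a linked open region in an ATAC-seq study of mouse subcutaneous white fat. Together they were linked to 7 of 12477 merged open regions. ATAC-seq maps open chromatin by letting Tn5 transposase insert adapters into accessible DNA. The study compared 2 libraries from wild-type males with 2 libraries from wild-type females, all from frozen tissue. The sources used here give no strain, age or housing temperature. Nothing in the labels says that the libraries of 1 sex are from different animals, and p-values then measure only the spread between these libraries, which may be technical.

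Beige adipocytes are heat-producing fat cells that arise within white fat, above all in the subcutaneous depot, on cold or adrenergic stimulation. PRDM16 is a transcriptional coregulator that directs precursor cells to the brown and beige fate. PPARA is a nuclear receptor that binds DNA with a retinoid X receptor and activates genes of fatty acid oxidation. COX7A1 is a subunit of cytochrome c oxidase found in heart, skeletal muscle and brown fat, and CKMT1 is a mitochondrial creatine kinase of the kind that feeds energy-consuming creatine cycling. UCP1, the uncoupling protein of brown and beige fat, had no row in the gene table.

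The value given for a gene is a peak height, the scaled number of overlapping tags at the highest point of a merged region, which the authors averaged over each region linked to that gene. All 4 genes had lower heights in each male than in either female, and none of the differences passed the test over all genes. A region entered the table through a peak in at least 1 library, and those of Prdm16, Cox7a1 and Ckmt1 entered through female peaks alone. So did the region at the Ppara start. A lower male height is favoured by that choice, so the order of the sexes at these regions supports nothing by itself. The regions differed in how far they belong to the named gene. Both Prdm16 regions lay deep within the gene and were linked to no other gene. Ppara had a region at its own start and another at the start of the neighbouring gene Cdpf1. Cox7a1 had a region at its own start and another at the start of Capns1, and the single Ckmt1 region lay between Ckmt1 and Ppip5k1. Of the 7 regions, 4 were linked to other genes too, as were 42.6% of all linked regions.

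Of the 7 regions, 4 overlap the RefSeq start window of a gene, 250 bases before to 50 bases after the start, and these windows are shown because they hold part or all of an open region. Each is read 5′ to 3′ along the strand of the gene named, from assembly GRCm38.p6, the assembly of build mm10. Capitals mark the bases that lie within the merged open region. The windows are Ppara at chr15:85735526-85735825 (plus strand), Cdpf1 at chr15:85811648-85811947 (minus strand), Cox7a1 at chr7:30183921-30184220 (plus strand) and Capns1 at chr7:30195104-30195403 (minus strand).
Ppara: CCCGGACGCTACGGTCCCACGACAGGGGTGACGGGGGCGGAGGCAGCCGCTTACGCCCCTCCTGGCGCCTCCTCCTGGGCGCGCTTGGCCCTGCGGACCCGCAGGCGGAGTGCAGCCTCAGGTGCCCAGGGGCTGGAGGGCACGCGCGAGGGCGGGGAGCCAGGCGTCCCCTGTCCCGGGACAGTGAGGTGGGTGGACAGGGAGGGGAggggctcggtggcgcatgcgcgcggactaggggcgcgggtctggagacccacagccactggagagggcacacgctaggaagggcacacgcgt
Cdpf1: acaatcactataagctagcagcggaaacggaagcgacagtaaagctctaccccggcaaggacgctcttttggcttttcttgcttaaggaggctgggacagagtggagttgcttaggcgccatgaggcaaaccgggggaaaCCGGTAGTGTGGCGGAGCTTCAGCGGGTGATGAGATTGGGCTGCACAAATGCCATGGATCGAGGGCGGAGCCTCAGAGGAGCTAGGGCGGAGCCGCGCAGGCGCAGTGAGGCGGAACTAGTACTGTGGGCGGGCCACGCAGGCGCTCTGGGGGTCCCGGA
Cox7a1: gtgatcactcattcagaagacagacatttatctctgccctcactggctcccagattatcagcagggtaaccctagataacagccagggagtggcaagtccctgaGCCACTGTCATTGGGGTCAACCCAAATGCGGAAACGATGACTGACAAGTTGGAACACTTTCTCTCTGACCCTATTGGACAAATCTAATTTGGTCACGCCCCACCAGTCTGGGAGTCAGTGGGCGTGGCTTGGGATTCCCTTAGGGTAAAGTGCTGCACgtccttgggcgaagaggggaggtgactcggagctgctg
Capns1: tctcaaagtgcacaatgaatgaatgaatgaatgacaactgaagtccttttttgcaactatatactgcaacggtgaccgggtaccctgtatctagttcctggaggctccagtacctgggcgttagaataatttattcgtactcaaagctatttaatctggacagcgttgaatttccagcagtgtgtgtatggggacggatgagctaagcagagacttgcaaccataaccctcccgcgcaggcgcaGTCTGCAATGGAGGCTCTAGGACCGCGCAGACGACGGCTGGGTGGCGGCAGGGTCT

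The open part covered 208 bases of the Ppara window, of a region of 416, and 160 bases of the Cdpf1 window, of a region of 167. It covered 158 bases of the Cox7a1 window, the whole region, and 56 of the Capns1 window, of a region of 117. The RefSeq start of the Ppara window is 85735776 and the start deposited for Ppara is 85735564, so the window begins beyond the highest points of that region, which are not shown. The Ppara window was the most GC-rich of the 4, at 74.7% G or C with 30 CpG dinucleotides, against 60.7% and 21 for Cdpf1, 53.0% and 7 for Cox7a1 and 50% and 14 for Capns1. Over all windows that overlap an open region the medians were 63.0% and 24 CpG dinucleotides, so the Cox7a1 start was an open window poor in CpG. Exact letters were searched on both strands for 13 short motifs, and positions are counted from the first base of the window. The GC box GGGCGG, known as a site of Sp1 factors, was found at bases 35 to 40 and 150 to 155 of the Ppara window and at 3 places in the Cdpf1 window, each time in the open part. It occurs in 35.6% of all 32817 windows. The Cox7a1 window held no GC box and the CCAAT box on its reverse strand at bases 114 to 118 and 177 to 181, both in the open part, a motif found in 37.4% of windows. The NRF1 motif, GCGC and TGCGC with any base between them, whose factor is known for nuclear genes of mitochondrial function, was present in the Ppara, Cdpf1 and Capns1 windows, against 4.59% of all windows. The 4 windows were picked as open, and open windows had a median of 24 CpG dinucleotides against 7 over all windows. As this motif holds CpG, its share over all windows is an uneven comparison. The share among open windows was not counted for any motif. The NRF1 motif lay in the open part only in Cdpf1, at bases 235 to 244. The direct repeat that PPAR and RXR bind, a pair of AGGTCA with any base between them, was in none of these 4 windows and in 0.0396% of all windows, and the TATA box TATAAA was in none of the 4 and in 13.6% of all windows. These matches are descriptions of letters, not of binding.

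The start windows of the other 2 genes held no open region. No merged region overlapped the Prdm16 window or either of the 2 Ckmt1 windows, as was the case for most genes, since 32.8% of 21229 windows of protein-coding genes overlapped one. No genome sequence was used beyond these windows, so the letters of the Prdm16 and Ckmt1 regions are not shown. Exon and intron positions were not used here.

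Facts of the whole series touch every value below. Peaks numbered 5484 in male 1, 4049 in male 2, 10238 in female 1 and 8022 in female 2. The mean height over all genes was 25.3 and 16.8 in males against 40.9 and 32.5 in females, a difference of -15.6, for which the exact permutation test of 2 libraries against 2 gave its smallest two-sided p, 0.333. On the log2(height + 9) scale used for the tests the median of all genes was -0.63, male minus female, and differences are therefore also given relative to that median. Male 2 stood apart from the other 3 libraries, with peaks of a median width of 284 bp against 160 to 171 bp. No source used here gives read totals, and the depth of each library is unknown. Heights were whole multiples of 1 step per library, which gives the number of overlapping tags before the authors' scaling.

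White fat markers were checked beside the genes. Of 15 adipocyte markers 11 had a linked region, among them Pparg, Lipe, Retn and Cfd, while Adipoq, Fabp4, Plin1 and Lep had no row. Of the 7 brown or beige markers fixed for the check, Cidea and Cox7a1 alone had a row, and Ucp1, Dio2, Elovl3, Cox8b and Ppargc1a had none. The table thus holds regions of few genes that define thermogenic fat cells, and the label of these 4 genes rests on their known roles. In bulk nuclei, fewer cells of a type and less open chromatin per cell cannot be told apart.

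**Figure D1:**
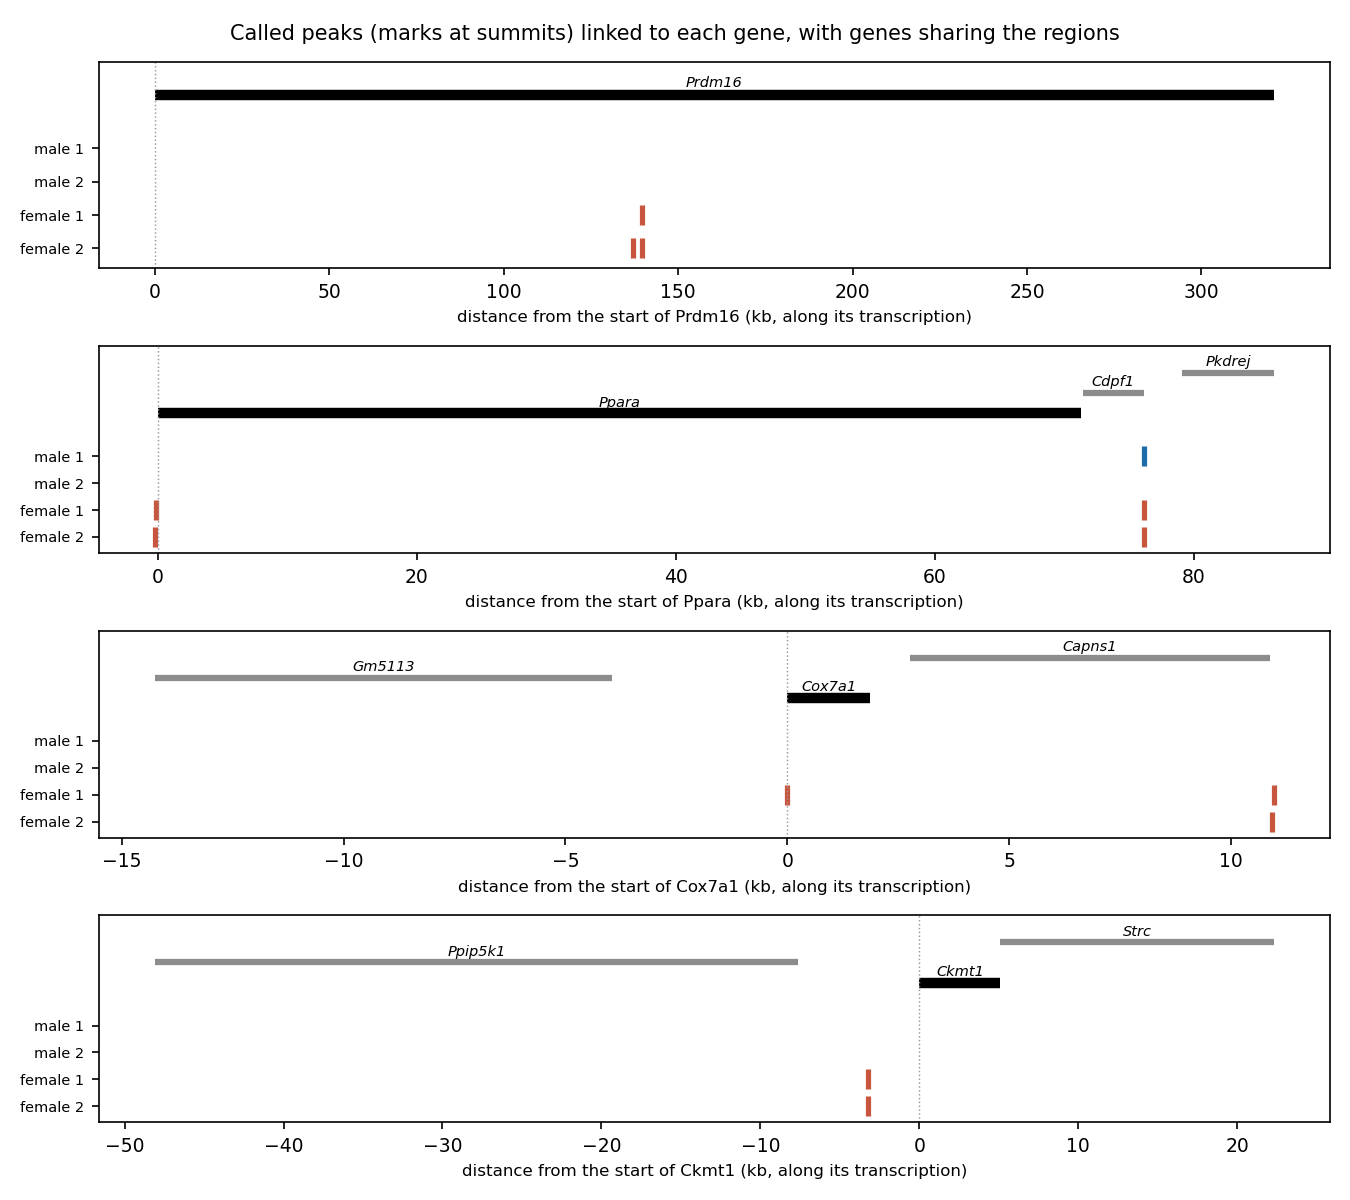
Position of the called peaks of each library, drawn at their summits in kb from the start of the gene along its transcription, with the gene in black and the genes that share its regions in grey. Both Prdm16 regions lie deep within the gene, and the only male peak is that of male 1 beyond the end of Ppara.

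Prdm16 (GeneID 70673, chromosome 4, 154316125 to 154636873, minus strand) was linked to a region at chr4:154497112-154497291 of 180 bp and another at chr4:154499886-154500019 of 134 bp. Their centres lay 139672 and 136920 bp into the gene from its start, with 2594 bp between their edges, and no other merged region lay in the gene or within 50 kb of it. Female 1 had a peak in the first region with a summit of 32.0, and female 2 had peaks in both, with summits of 30.4 and 28.8. Neither male had a peak in either region. Peaks in both females and neither male, as in the first region, were found at 12.9% of all merged regions, and a peak in 1 female alone, as in the second, at 33.5%.

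The height of Prdm16, averaged over both regions, was 17.0 in male 1 and 7.34 in male 2, against 26.5 in female 1 and 31.2 in female 2. Both males were below both females, with no overlap. No other gene holds these regions alone, so the split between them can be given only in part. The summed height was 33.9 and 14.7 in males against 53.0 and 62.5 in females. In female 1 a remainder of 21.0 was left for the second region, where no peak was called, if the first region's height equals its summit. That held for 98.7% of single-region peaks of that library. In female 2, with a peak in both regions, it did not hold for both. The 2 summits added to 59.2 against the summed 62.5, with 3.29 (4 tags) left over. The 21.0 is therefore uncertain. Ranked among all genes of the same library, Prdm16 had a percentile of 23 and 11.4 in males against 21.2 and 53.7 in females, so that on this scale the sexes overlapped. It was the lowest of the 4 genes in every library.

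The Prdm16 difference on the log2 scale was -0.88 (SE 0.365, 95% interval -1.59 to -0.16), which missed the threshold of 0.05 (limma adjusted p = 0.125, Benjamini-Hochberg over all genes). It lay -0.25 from the median of all genes.

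Ppara (GeneID 19013, chromosome 15, 85735564 to 85806851, plus strand) was linked to a region of 416 bp around its start, at chr15:85735318-85735733, and to another of 167 bp at chr15:85811641-85811807, centred 76160 bp downstream of the start. The Ppara window shown above holds 208 bases of the first, which was linked to no other gene. It had a peak in both females, with summits at -108 bp from the deposited start in female 1 and -188 bp in female 2, both outside the window shown, and intervals of 416 bp in female 1 and 175 bp in female 2, and in neither male. The second lies beyond the end of Ppara at the start of Cdpf1, a gene named for a cysteine-rich DPF motif domain, and was also linked to Pkdrej, a member of the polycystin family, 9989 bp or more downstream of its start. It had peaks in male 1 and both females, a pattern found at 14.4% of merged regions. It was the only one of the 7 regions with a peak in a male.

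The 2 Ppara regions could be separated, because Cdpf1 is linked to the second alone. At the Ppara start the height was 22.6 in male 1 and 8.81 in male 2, against 46.0 in female 1 and 37.8 in female 2. Both males were below both females there, also in overlapping tags before scaling, at 32 and 12 against 46 and 46. At the Cdpf1 start the height was 31.8 and 12.5 in males against 46.0 and 31.2 in females, so that male 1 lay above female 2. In tags the Cdpf1 start had 45 in male 1, close to the 46 of female 1 and above the 38 of female 2. The log2 difference was -1.10 at the Ppara start and -0.67 at the Cdpf1 start, against a median of -0.63 over the 6785 regions whose height could be separated. Over those regions 5.66% lay lower than the Ppara start and 45.5% lower than the Cdpf1 start. The Ppara start entered through female peaks alone, which favours a lower male height, and the Cdpf1 start also through a peak of male 1. Nothing is therefore read from the contrast between them.

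Averaged over both regions, Ppara had 27.2 and 10.6 in males against 46.0 and 34.5 in females. The log2 difference was -0.88 (SE 0.389, 95% interval -1.64 to -0.11), and it did not pass (limma adjusted p = 0.135). The row of Cdpf1, which is the second region alone, had a limma adjusted p of 0.192 and lay -0.04 from the median of all genes.

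Cox7a1 (GeneID 12865, chromosome 7, 30184171 to 30186030, plus strand) was linked to a region of 158 bp at its start, chr7:30184025-30184182, and to a region of 117 bp at chr7:30195043-30195159, centred 10930 bp downstream. The first lies wholly within the Cox7a1 window shown above and had a peak in female 1 only, with its summit 11 bp before the start. The second lies at the start of Capns1, which encodes the small regulatory subunit of calpains, and had peaks in both females and neither male. Capns1 carried the same 2 regions as Cox7a1 and hence the same values, and the first region was also linked to the predicted gene Gm5113, 14238 bp downstream of its start.

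The averaged Cox7a1 height came mostly from the start of Capns1. That region had 41.0 in male 1 and 9.55 in male 2, against 52.0 in female 1 and 67.4 in female 2. Its share of the summed height was 80.6% and 50% in males and 61.9% and 78.1% in females. The Cox7a1 start itself had 9.90 and 9.55 in males against 32.0 and 18.9 in females. Both males were below both females there and close to each other, with 14 and 13 overlapping tags against 32 and 23.

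Absence of a called peak did not always go with a low height. In male 1 the Capns1 start had no called peak although its 58 tags exceeded the 52 of female 1, and its scaled height lay above 80.4% of the summits called in that library. Of the 3167 regions with a separated height and no peak in male 1, 4.64% reached the median summit of that library. At the Cox7a1 start, by contrast, the height of male 1 lay above 0.255% of its summits.

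Averaged over both regions, Cox7a1 had 25.4 and 9.55 in males against 42.0 and 43.2 in females, and the females were closer to each other than for any of the other 3 genes. The log2 difference was -1.03 (SE 0.389, 95% interval -1.79 to -0.27) and did not pass (limma adjusted p = 0.110). The region at the Cox7a1 start, tested through the row of Gm5113, had a log2 difference of -0.85 (SE 0.357), which is -0.22 from the median over all genes, and did not pass either (limma adjusted p = 0.125). Cox7a1 is also a gene of muscle. Of 20 skeletal muscle markers 4 had a linked region (Mb, Tnnc2, Mylpf and Actn3), and their summed height was 148 and 81.5 in males against 276.5 and 204 in females. Their median log2 difference was -0.93, against -0.63 for all genes. Ckm, Acta1, Ttn, Des and all 5 myosin chain genes other than Mylpf had no row. The part of muscle in the Cox7a1 values was not tested.

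Ckmt1 (GeneID 12716, chromosome 2, 121358641 to 121363737, plus strand) was linked to a single region of 105 bp at chr2:121355341-121355445, centred at -3248 bp from its deposited start, upstream. Both females had a peak there with their summits at the same base, and neither male had one. The region was linked also to Ppip5k1, an inositol pyrophosphate kinase that lies on the other side and is read in the opposite direction, with the summit at -4379 bp from its start. It was linked too to Strc, the stereocilin gene of inner ear hair cells, 25548 bp downstream of its start. All 3 genes carry this one measurement.

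The height of the Ckmt1 region was 19.1 in male 1 and 9.55 in male 2, against 47.0 in female 1 and 32.9 in female 2. In overlapping tags it had 27 and 13 in males and 47 and 40 in females. Both males were below both females on either scale. Among all genes of the same library it had a percentile of 30.6 and 21.5 in males against 69.1 and 58.4 in females, the widest separation of the 4 genes on that scale. The percentile of Ppara was 61.7 and 27.3 in males against 67.2 and 62.7 in females, and that of Cox7a1 was 55.2 and 21.5 in males against 59.2 and 79.6 in females. Both males ranked below both females for Ppara, Cox7a1 and Ckmt1, which 21.0% of all genes showed. The regions of Cox7a1 and Ckmt1 and the Ppara start entered through female peaks alone. That favours low male ranks, so nothing is read from this share.

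Ckmt1 had the lowest log2 difference of the 4 genes, -1.09 (SE 0.381, 95% interval -1.83 to -0.34) and -0.46 from the median over all genes. It too missed the threshold (limma adjusted p = 0.0992).

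**Figure D2:**
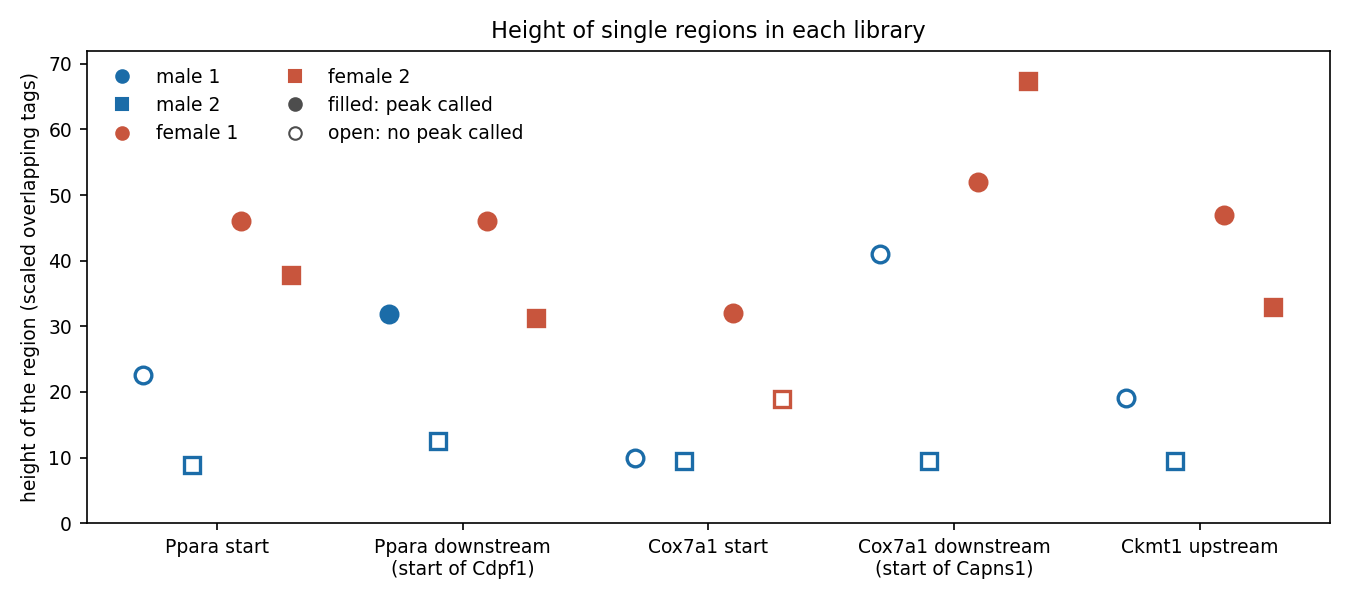
Height of the 5 regions that could be separated, in scaled overlapping tags, for each library, filled where a peak was called. Male 1 lies among the females at the start of Cdpf1, and at the start of Capns1 its 41.0 has no called peak.

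**Figure D3:**
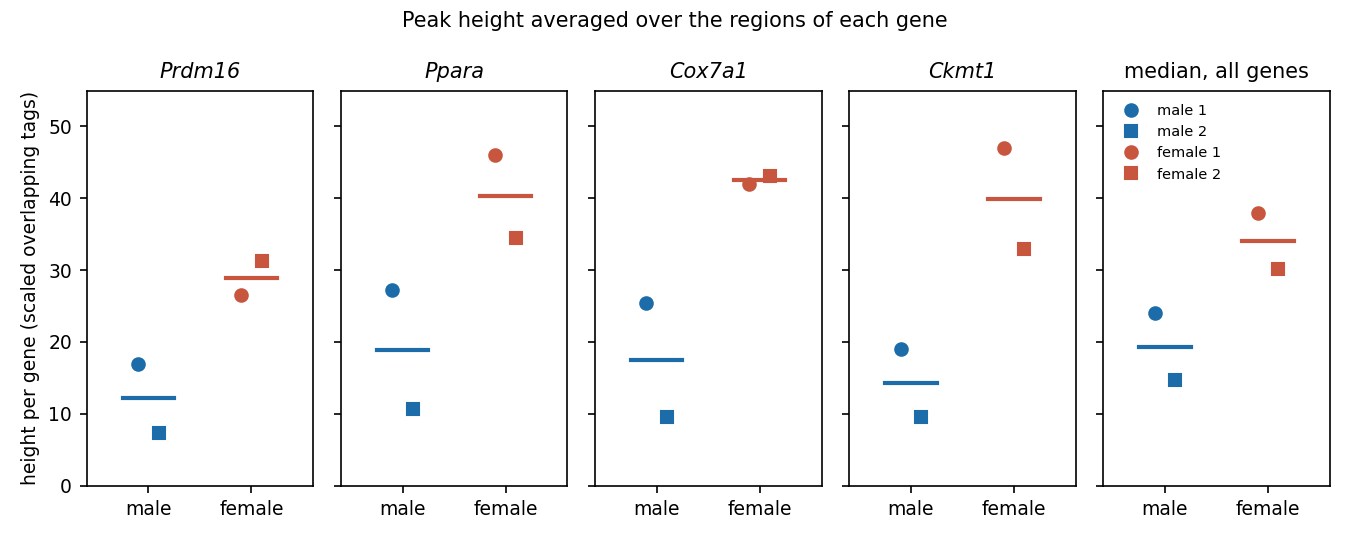
Height averaged over the linked regions, in scaled overlapping tags, for each library of the 4 genes and for the median of all genes, with bars at the mean of each sex. Each male lies below either female for all 4 genes, as for the median of all genes.

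Across the 4 genes, both males lay below both females in 4 of 4, an order shown by 76.4% of all genes; the opposite order was seen in 0 of 4, against 0.35%. Male 2 was lowest and male 1 next in 4 of 4, against 68.8%. None of the 4 passed the limma test with Benjamini-Hochberg adjustment over 11993 genes, which called 0.592% of genes lower in males. The unadjusted p was under 0.05 for 4 of 4, against 31.4% of all genes. As the genes were chosen with earlier results of these data known, nothing is read from these shares. Set against the median over all genes, the 4 differences lay between -0.46 and -0.25. Of all genes, 17.1% lay at least as far below it as Ppara, which had the smallest gap of the 4. The share of genes with a lower difference was 6.73% for Cox7a1 and 4.36% for Ckmt1. Nothing is read from these shares either. Centred on the library medians, the limma adjusted p was between 0.609 and 0.750 for the 4 genes.

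These calls depended on male 1 and on the replicate block. With the replicate number as a block all 4 genes passed (limma adjusted p between 6.74e-04 and 0.00436), although the labels state no pairing. Without male 1 all 4 genes passed (limma adjusted p between 0.00115 and 0.00627) with male 2 as the lone male, which is assumed to vary like the females. With any other library left out none passed, and the smallest limma adjusted p was 0.445. The 71 genes called over the whole table became 19 without female 1, 64 without female 2, 6391 lower and 28 higher without male 1, and 0 without male 2, where 986 had an unadjusted p under 0.05.

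**Figure D4:**
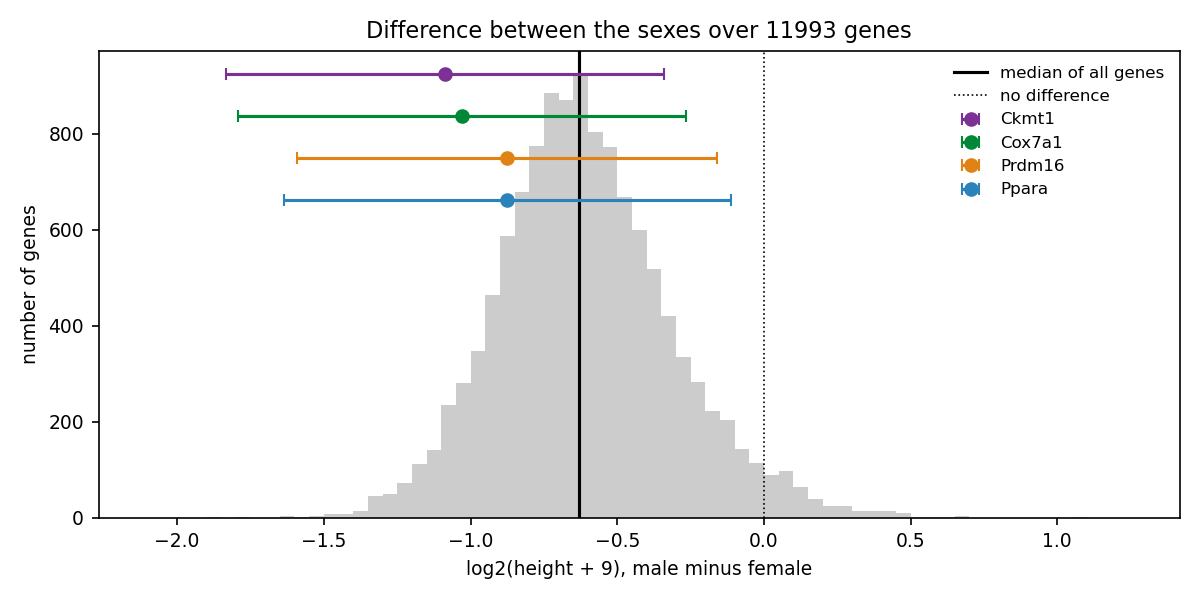
Distribution of the log2(height + 9) difference, male minus female, over all genes, with the 4 genes drawn at arbitrary heights with their 95% limma intervals. The 4 genes lie between -1.09 and -0.88, left of the median of -0.63, and the interval of each includes that median.

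Peak calls followed the same order. Male 2 had no linked interval for 4 of 4 genes, against 50.9% of all genes, and neither male but both females had one for Prdm16, Cox7a1 and Ckmt1, a pattern of 11.7% of genes. Females had a peak in 12 of 14 library-region pairs, against 1 of 14 in males. Over all merged regions the shares were 37.7% of pairs in males and 71.4% in females. Neither male had a peak in 6 of the 7 regions, against 46.3% of all merged regions. Of the 5 regions whose height could be separated, 4 had a lower height in each male than in either female, against 71.8% of all such regions. The exception was the start of Cdpf1, the only one of the 5 with a male peak, and the other 4 entered through female peaks alone, so nothing is read from this order.

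Within each male the order by height was Prdm16, Ckmt1, Cox7a1 and Ppara, with Ckmt1 and Cox7a1 equal in male 2. The spread within a sex holds the library-wide gap that all genes share, and the differences between the genes were not tested. The male means were 12.2 ± 6.80 for Prdm16, 14.3 ± 6.75 for Ckmt1, 17.5 ± 11.2 for Cox7a1 and 18.9 ± 11.7 for Ppara (SD, n = 2 each). In females Prdm16 was lowest at 28.9 ± 3.35, followed by Ckmt1 at 39.9 ± 9.98, Ppara at 40.3 ± 8.11 and Cox7a1 at 42.6 ± 0.818 (SD, n = 2 each). The last 3 changed places between the 2 females.

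The genes most like each of the 4 were found by distance over the 4 libraries, on the log2 scale after each library's median was subtracted. Prdm16 was nearest to Pvrl1, Fam212b and Cdk17 (distances 0.08, 0.10 and 0.11). Ppara was nearest to Exosc9, Ept1 and Dcpp3 (0.06, 0.07 and 0.08). Cox7a1 was nearest to Ehmt2, at 0.04, with heights of 26.2 and 9.55 in males against 41.0 and 43.6 in females, and then to Hmgn1 and Gne (0.12 and 0.13). Ckmt1 was nearest to Cbx6, Gsn and Chmp3 (0.08, 0.11 and 0.13). Among the 4 themselves the distance was 0.30 between Ppara and Cox7a1 and 0.84 between Prdm16 and Ppara, so each had 3 other genes of the table nearer to it than its closest among the 4. Ehmt2 is also in the list of PRDM16 partners and repressors.

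Of a wider list of 40 beige and thermogenic genes, 18 had a linked region and 22 had no row. None of the 18 passed over all genes in either direction, and their median log2 difference was -0.74 against -0.63 for all genes. Acot11, an acyl-CoA thioesterase of brown fat, had 24.7 and 8.81 in males against 53.0 and 51.8 in females inside the gene (limma adjusted p = 0.0683). The receptor gene Fgfr1 had 22.3 and 7.34 in males against 37.5 and 39.0 in females (limma adjusted p = 0.0997). Some other members of the list differed less. Ppargc1b, a coactivator of mitochondrial genes, had 20.5 and 6.61 in males against 21.0 and 27.9 in females. Cidea, a lipid droplet protein of brown fat, had 24.7 and 11.0 in males against 27.0 and 22.2 in females, with overlapping sexes, from a region downstream of the gene.

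Of the partners of PRDM16 and repressors of the beige programme, 26 of 27 had a linked region and none passed, with a median log2 difference of -0.60. Ehmt1, a histone methyltransferase that binds PRDM16, had 18.7 and 8.81 in males against 48.5 and 37.4 in females (limma adjusted p = 0.0844). The chromatin remodelling subunit Smarcd3 had 25.8 and 10.3 in males against 47.5 and 50.6 in females (limma adjusted p = 0.0971). The regions of Smarcd3 entered through female peaks alone, which favours a lower male height. Ctbp2, a corepressor that binds PRDM16, had 18.4 and 8.44 in males against 24.5 and 25.1 in females, a difference at the median of all genes. Cebpb, which acts with PRDM16 in the brown fat switch, went the other way in the second library of each sex, with 19.8 and 38.2 in males against 40.0 and 18.9 in females.

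Among 41 partners and targets of PPARA, 29 had a linked region, and 1 was called lower in males and 0 higher, against 0.592% and 0.0% of all genes. It was Acot1, a cytosolic acyl-CoA thioesterase, with 8.48 and 2.94 in males against 23 and 32.1 in females. Its log2 difference was -1.33, with SE 0.351 (limma adjusted p = 0.0348). Acot1 lies in a cluster of close paralogs, and no source used here says how reads with several matches were placed. The region of Acot1 entered through a peak of female 2 alone, which favours a lower male height, so nothing is read from its call. After median centring of the libraries Acot1 missed the threshold (limma adjusted p = 0.609). The median of the list was -0.59. Angptl4, an inhibitor of lipoprotein lipase, had 14.1 and 14.0 in males against 45.0 and 31.2 in females and did not pass (limma adjusted p = 0.110). Its region entered through a peak of female 1 alone, which favours a lower male height. Rxra, the partner receptor, had 21.4 and 10.8 in males against 40.3 and 34.3 in females and did not pass (limma adjusted p = 0.125). The carnitine palmitoyltransferase genes were closer between the sexes, with Cpt1a at 20.5 and 20.6 in males against 32.0 and 29.6 in females, and Cpt1b with a log2 difference of -0.48.

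Averaged with the start of Capns1, Cox7a1 had the lowest difference of the 13 cytochrome c oxidase genes with a linked region, of 18 listed. The region at its own start alone had a log2 difference of -0.85, smaller in size than the -0.87 of Cox7a2. Both Cox7a1 regions entered through female peaks alone, which favours a low rank. None of the 13 passed, and their median was -0.58. The closest in the list was Cox7a2, the form of the same subunit found in most tissues, with 40.3 and 14.7 in males against 59.0 and 48.5 in females (log2 -0.87, limma adjusted p = 0.144). Cox4i1, Cox5a and Cox5b had log2 differences between -0.82 and -0.79, and none of them passed (limma adjusted p between 0.146 and 0.156). The difference between Cox7a1 and its subunit partners was not tested. Cox8b and Cox6a2, found like Cox7a1 in muscle, had no row.

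Ckmt1 likewise had the lowest difference of the 6 genes of creatine and calcium cycling with a linked region, of 17 listed, and none passed. Unlike the others with a linked region, Ckmt1 had no peak in either male, which favours a low rank. Its value is also that of Ppip5k1 and Strc. The brain-type creatine kinase gene Ckb had 22.97 and 16.5 in males against 37.5 and 32.9 in females, and Gamt, which completes creatine synthesis, had 35.6 and 23.01 in males against 55.7 and 43.3 in females, each at the median of all genes. Slc25a4, the mitochondrial ADP/ATP carrier, had 19.8 and 15.4 in males against 43.0 and 41.1 in females (log2 -0.94, limma adjusted p = 0.124). Atp2a2, the calcium pump SERCA2, had 17.7 and 4.41 in males against 24.0 and 26.3 in females (log2 -0.85, limma adjusted p = 0.126). Ckmt2, the other mitochondrial creatine kinase gene, had no row.

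**Figure D5:**
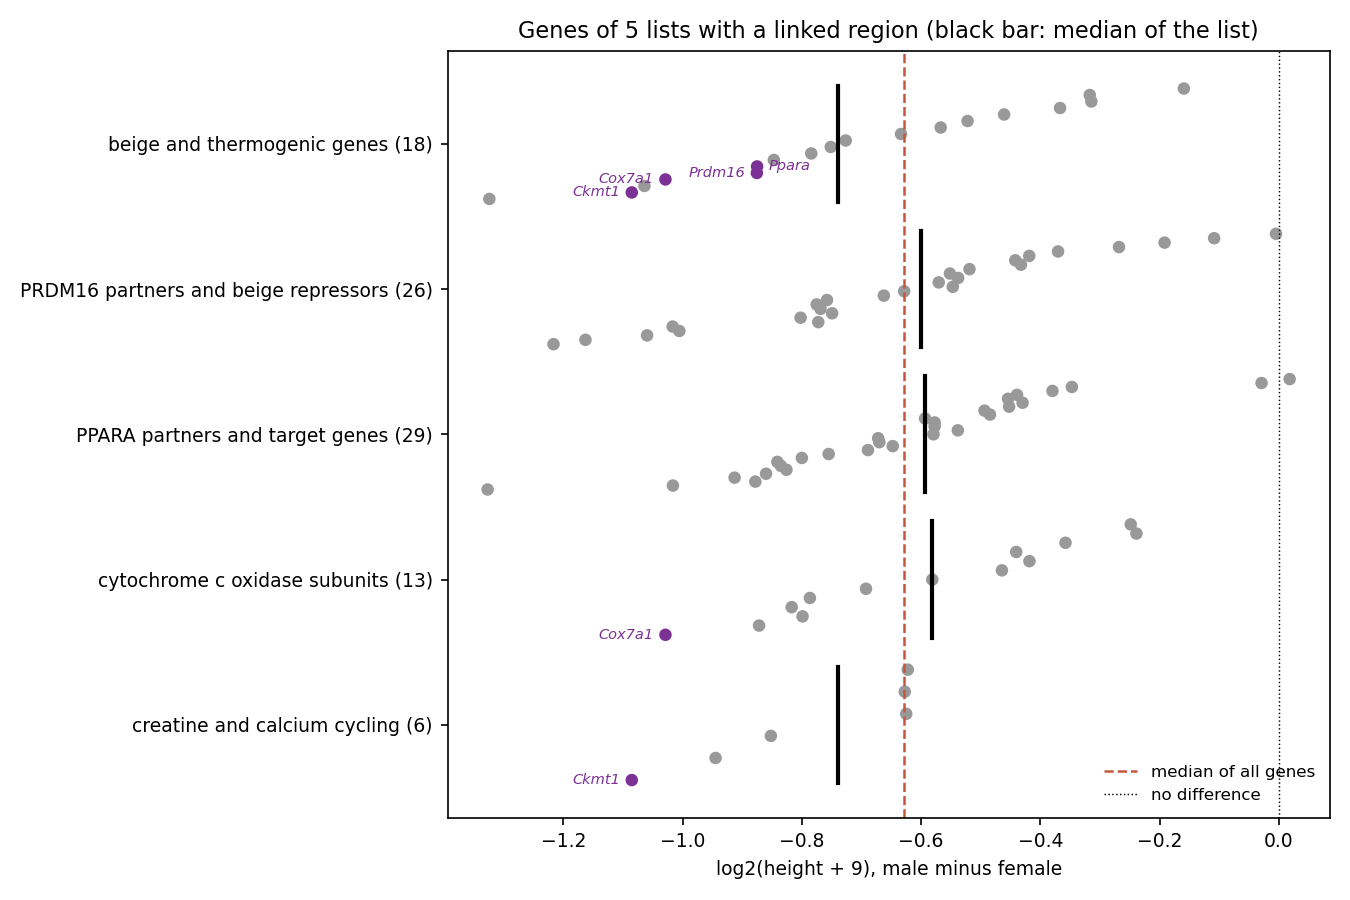
Log2(height + 9) difference, male minus female, of the genes with a linked region in 5 lists, with the number of genes in brackets and the 4 genes in purple. The medians of the lists, from -0.74 to -0.58, lie close to the median of all genes of -0.63.

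Markers of adipocytes and epithelium were lower in summed height in males, as was the median of all genes. The median log2 difference was -0.76 over the adipocyte markers and -1.20 over the epithelial markers with a linked region, against -0.63 for all genes. The gap between these medians was not tested. The summed height of the 11 adipocyte markers was 233 and 153 in males against 456.5 and 363 in females, and none of the 11 passed. Of 15 epithelial markers 5 had a linked region, with a summed height of 80.2 and 39.7 in males against 173 and 135 in females, and 2 of them, St14 and Spint2, were called lower in males, against 0.592% of all genes. Both entered through a peak of female 1 alone, which favours a lower male height, so nothing is read from these calls. Male heights were low, at 2.12 and 1.47 for St14 and 2.83 and 3.67 for Spint2. The Spint2 region lay downstream of the gene. After median centring neither gene passed (limma adjusted p = 0.614 for St14 and 0.609 for Spint2). Epcam, Krt8, Krt18, Krt5 and Krt14 had no row. The part of other cell types in the values of the 4 genes was not tested.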

How the data were processed

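Nuclei from 4 frozen subcutaneous fat samples, 2 male and 2 female, were treated with Tn5, per the labels' protocols. The submitters' processing notes name BWA, MACS2 2.1.0 and mm10; no source used here gives filters, duplicate removal or a Tn5 shift. Per the file headers, the authors called peaks in each library, then merged them. The deposited signal is peak height averaged over a gene's regions, scaled by 1 factor per library. The step, which is the scaled height of 1 tag, was 0.707, 0.734, 1.0 and 0.822 in male 1, male 2, female 1 and female 2. Of the single-region values, 100% were whole multiples within 0.02 of a step. The deposited counts are of merged regions per gene.

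Heights of single regions were read from genes with 1 region or obtained by subtraction; 6785 regions could be separated. Sexes were compared on log2(height + 9) with limma 3.58.1 (R 4.3.3), with trend, over 11993 genes, threshold 0.05, where 9 is the rounded-up 5th percentile of non-zero heights. As heights were missing for many regions, no test was made over regions. The test was tried on simulated data without a shift between whole libraries, so it was not tried under the library-wide gap of these data. Start windows are RefSeq's, GRCm38.p6, matched by symbol for 6 of 6 genes looked up. Python 3.11.15, pandas 2.3.3, numpy 2.4.6 and matplotlib 3.10.9 were used. Named genes follow a rule: the 4 genes, those sharing their regions, up to 6 genes of each list with the smallest p plus a fixed set, and the 3 nearest in pattern. The genes and lists were chosen with earlier results of these data known. Unused per-sample columns numbered 0.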

Additional observations from a re-analysis of the deposited data

How the results depend on the processing

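All 4 genes kept a lower value in males under each of 13 alternatives (52 of 52 values), also relative to the median of all genes, and in 44 of 52 the limma adjusted p stayed above the threshold. Much of that count was fixed in advance. The filter on low genes, the replicate block, no trend and a row per set of regions leave the value itself unchanged. As both males lay below both females, neither a pseudocount nor a left-out library could change its sign. Pseudocount 1 or 36, a filter on low genes, median centring, quantile normalization, no trend, and a row per set of regions changed none of the calls of the 4 genes. Leaving out 1 library gave -1.21 to -0.54 for Prdm16, -1.32 to -0.43 for Ppara, -1.48 to -0.58 for Cox7a1 and -1.38 to -0.79 for Ckmt1, with all 4 past the threshold without male 1. The same numbers in the 2 sexes mark no stated pairing (correlation of deviations across genes 0.0166). With the replicate block the values were -0.88, -0.88, -1.03 and -1.09 for Prdm16, Ppara, Cox7a1 and Ckmt1, all past the threshold (limma adjusted p 0.00428, 0.00436, 0.00119 and 6.74e-04), among 6925 calls. The count over all genes was 71. It was 416 without trend and 0 to 6419 with 1 library left out. It was 0 with low genes left out (2736 at an unadjusted p under 0.05), 0 with median centring (436 lower and 526 higher) and 0 with quantile normalization (426 and 485). With unscaled tags, an alternative chosen after seeing the data, it was 4. The causes were not tested. The median height over all genes gave a difference of -14.7. The number of libraries with a peak at each of the 7 regions was the same with an overlap of at least 50% of the region or peak and without the lowest quartile of summits. With 2 libraries a sex and unknown depth, differences between single genes and the library-wide shift are resolved poorly.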
